A study of Rattus norvegicus with 105 samples.

Results

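The genes described here encode the 5 dopamine receptors of the rat, Drd1 to Drd5, and the monoamine oxidases Maoa and Maob. They were taken as every probe set that the platform's annotation gives to one of these symbols alone. That gave 10 probe sets for 7 genes, out of 14217 symbols on the array: 2 for Drd1, 3 for Drd4 and 1 for each of the others. The samples were frontal cortex RNA of rats on 105 Affymetrix arrays, in 3 experiments and 11 groups, with each experiment set against its own control. In the first, the ventral hippocampus, a region that projects to frontal cortex, carried a lesion for 12 arrays, with 10 sham-surgery arrays beside them. In the second, 11 arrays came from rats whose ventral hippocampus had been disrupted with tetrodotoxin (TTX), a blocker of sodium channels, and 9 from sham rats. The neuroleptic experiment held 9 arrays after chronic vehicle, 10, 9 and 8 after low, medium and high clozapine, and 9 after each of low, medium and high haloperidol. The labels give doses only as these words, and no strain, age or sex. Nothing in them says that each array is a different rat, and the p-values here therefore cover the scatter among these arrays, some of it possibly technical.

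Dopamine acts through receptors that couple to G proteins. The D1 class, Drd1 and Drd5, couples to stimulatory G proteins and raises cyclic AMP. The D2 class, Drd2, Drd3 and Drd4, couples to inhibitory G proteins and lowers it, and Drd2 is the receptor that haloperidol blocks most directly. In frontal cortex Drd1 transcript is known from deep-layer pyramidal neurons, while striatal projection neurons carry far more of Drd1 and Drd2. Monoamine oxidases sit on the outer mitochondrial membrane and oxidise dopamine and other amines after uptake; Maoa is known from catecholamine neurons and Maob from astrocytes and serotonin neurons.

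Maoa and Maob were measured far above background, Drd1 and Drd2 moderately above it, and the remaining receptors were near it. A probe set was placed near background when its mean log2 intensity over an experiment was at or under the 90th percentile of 53 probe sets for 41 genes of other tissues, such as liver, pancreas and testis. That limit was an intensity of 330 for the lesion arrays and their shams, 379 for the TTX experiment and 316 for the neuroleptic one. Drd1 lay above it on both probe sets in each experiment, and so did Drd2, Maoa and Maob. For Drd2 the geometric mean intensity was 442, 536 and 574 in the lesion, TTX and neuroleptic experiments. Some single Drd2 arrays lay under the limit, down to 155 in the lesion shams and 232 in the TTX shams. Drd3, Drd5 and the Drd4 probe sets 1387520_at and 1394384_at lay below it in each experiment. Some of their arrays stood at 32, the floor set for all values. Drd5 was at that floor on 22 of 63 neuroleptic arrays, 9 of 20 TTX-experiment arrays and 5 of 22 lesion-experiment arrays. Drd3 was at it on 9, 2 and 5 arrays of the same experiments. The third Drd4 probe set, 1394385_s_at, lay under the limit in the lesion and TTX experiments and barely over it in the neuroleptic one, at a mean log2 of 8.31 against a limit of 8.30. With the median of the same list as a stricter limit, Drd5 and the Drd4 probe set 1394384_at were still under it in the neuroleptic arrays, while Drd3 and 1387520_at were just over it. Probe sets differ in how brightly they bind, so levels are compared only within a probe set.

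**Figure D1:**
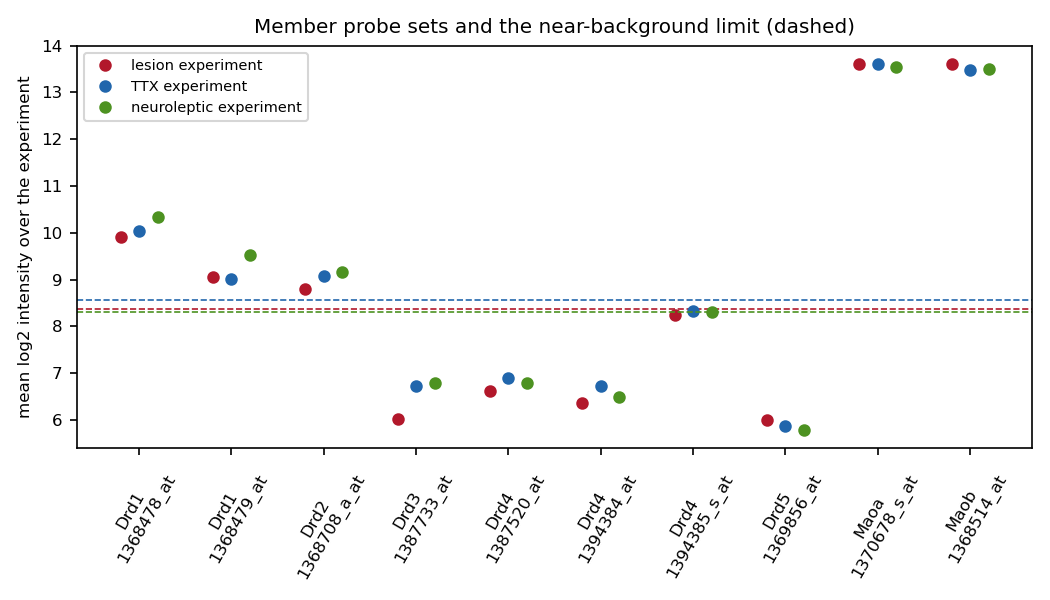
Mean log2 intensity of each of the 10 probe sets over the arrays of each experiment (points), with that experiment's near-background limit as a dashed line of the same colour. Maoa, Maob, Drd1 and Drd2 lie above the limits, Drd3, Drd5 and 2 of the 3 Drd4 probe sets lie below them. The third Drd4 probe set lies under the limit of the lesion and TTX experiments and at that of the neuroleptic one (8.31 against 8.30).

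No member was called in any comparison. Of 14 comparisons, each over the 18625 probe sets with the highest mean in an experiment, Drd1, Maoa and Maob entered all, Drd2 entered all but the lesion comparison, and Drd3, Drd4 and Drd5 entered none. That made 69 member tests, with 0 at an adjusted p under 0.05 by limma and 2 at an unadjusted p under 0.05. Few other probe sets passed either. The share called was 0% for the lesion, 0% for TTX, 0% for the clozapine mean and 0.0215% for the haloperidol mean. Among single clozapine doses against vehicle it was 0% at low, 0.0215% at medium and 0.00537% at high. Among haloperidol doses it was 0%, 0.00537% and 0.0268% in the same order, and it was 0% between high and low for each drug. For the lesion effect minus the TTX effect it was 0%. The clozapine mean against the haloperidol mean had the most, 225 probe sets or 1.21%. Over all 31042 probe sets without the filter, 0 of 140 member tests were called and 6 had an unadjusted p under 0.05. The share of all probe sets called there was 0.158% for clozapine against haloperidol, 0.0161% for medium clozapine, 0.00966% for high haloperidol and 0.00322% for each of the lesion, high clozapine, the haloperidol mean and medium haloperidol. It was 0% for the other 7 comparisons.

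Drd1 stood higher after the lesion than after sham surgery on its brighter probe set, 1368478_at, without passing the test. Its intensity ran from 759 through a median of 1171 to 1584 in lesion arrays, against 425, 822 and 1697 in sham arrays. The sham range covers the lesion range, and 3 of the 10 sham arrays lie below the lowest lesion array. On the log2 scale the means were 10.11 ± 0.29 after the lesion and 9.66 ± 0.65 after sham (SD, n = 12 and 10). The difference was 0.45 ± 0.19 (SE; 95% interval 0.052 to 0.85), with 11 of 12 lesion arrays above the sham mean, an unadjusted p of 0.0285 and a limma adjusted p of 0.607. Of all probe sets tested, 7.79% had an unadjusted p under 0.05 in this comparison. The second Drd1 probe set, 1368479_at, showed 0.16 ± 0.17, with an interval of -0.18 to 0.51 (limma adjusted p = 0.85). Lesion array 7 and sham array 9 correlated less with the other arrays of the experiment; without them the difference on 1368478_at was 0.35 (limma adjusted p = 0.699). Without sham array 7 alone it was 0.35 on 1368478_at and 0.049 on 1368479_at.

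The Drd1 difference was larger among the later sample numbers. The array titles of an experiment carry 1 unbroken run of numbers, which was cut for these comparisons into sets of equal or nearly equal size; the labels give no such sets, and other cuts were not tried. The lesion experiment was cut at the middle of its run, with 6 lesion and 5 sham arrays on either side. In set 1 the lesion arrays averaged 10.16 and the sham arrays 10.16, a difference of 0.0022. In set 2 they averaged 10.06 and 9.15, a difference of 0.90. There the 6 lesion arrays lay between 909 and 1230 and the 5 sham arrays between 425 and 796. How many of all probe sets separate the groups this far within a set was not counted. In set 1 the sham arrays, at 847 to 1697, covered most of the lesion range of 759 to 1584. On the second probe set the differences were -0.012 in set 1 and 0.34 in set 2, and for Drd2 they were -0.12 and 0.36. With groups taken out, the number sets held 31.3% of the variance of Drd1 in this experiment, against a median of 5.11% over the probe sets tested, and 4.83% of them had a larger share. With the sample number itself as a linear covariate, which needs no cut, the Drd1 difference was 0.42 (limma adjusted p = 0.553). Whether the lesion effect differs along the run of numbers was not tested.

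Markers of deep cortical layers varied with Drd1 from array to array, but their score averaged nearly the same in lesion and sham arrays. A score over the 5 of 8 measured markers of layer 6 and 6b neurons that passed the filter, as mean log2 deviation, averaged 0.047 in lesion arrays and -0.21 in sham arrays of set 2. In set 1 it averaged -0.044 in lesion arrays and 0.20 in sham arrays, the opposite direction. Over the whole experiment the score averaged 0.0018 in lesion arrays and -0.0021 in sham arrays. It ran from -0.28 to 0.30 in lesion arrays and from -0.66 to 0.38 in sham arrays. The remaining measured markers included Ntsr1 and Nxph4, both near background. The sham array with the lowest score, -0.66, was also the lowest for Drd1. With group means removed, Drd1 followed this score over the 22 arrays at Pearson r = 0.73 (permutation p = 0.00013) and Spearman rho = 0.75 (permutation p = 8e-05). Differences between the number sets were left in, and sham arrays of set 2 were lower than those of set 1 in both the score and Drd1. The permutation treats all arrays as exchangeable, so its p can be too small, and the part of the sets in r was not tested. Without the 2 arrays farthest from the median score, r was 0.54. In the TTX experiment r was 0.68 and rho 0.52 (permutation p = 0.00207 and 0.0203, n = 20), but r was 0.29 without the 2 farthest arrays, so that relation rests on them. In the neuroleptic experiment, with 6 markers in the score, r was 0.43 and rho 0.45 (permutation p = 0.00048 and 0.00029, n = 63), with r = 0.37 without 2 arrays. Adjusted over these 3 relations, which were added after the values were seen, the p-values for r were 0.00039, 0.00207 and 0.00072. Of the other lists, 9 of 11 interneuron markers were higher and 8 of 8 oligodendrocyte markers lower after the lesion, with medians of 0.11 and -0.12 and 0 called. The part of any of these markers in the Drd1 difference was not tested.

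**Figure D2:**
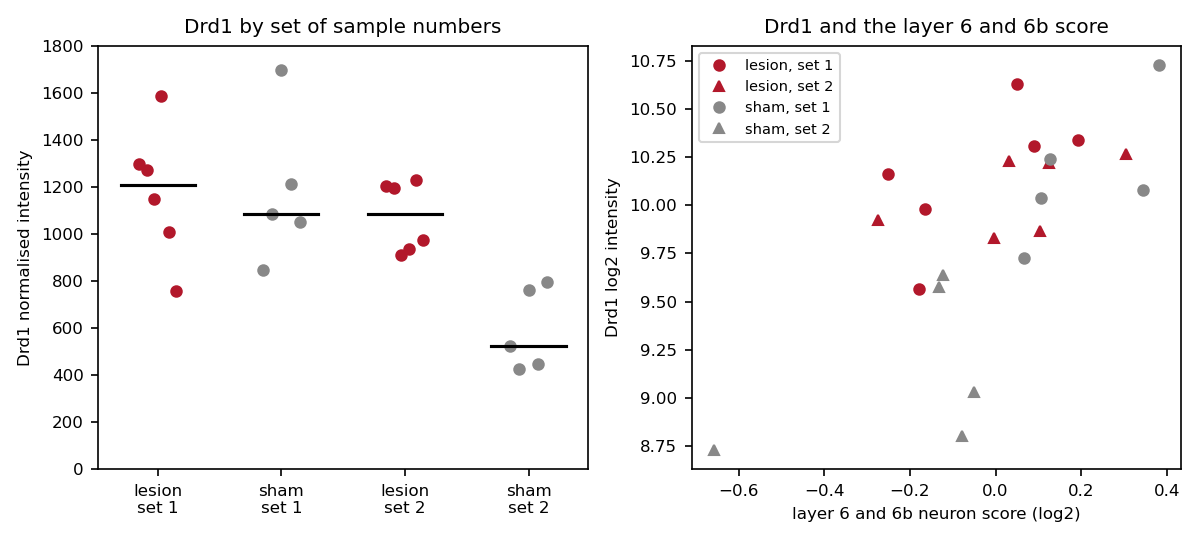
Left, Drd1 (1368478_at) normalised intensity on each array of the lesion experiment by group and set (the run of sample numbers cut at its middle), with medians as bars. Right, Drd1 log2 intensity against the layer 6 and 6b neuron score on the same arrays. The mean log2 difference between lesion and sham is 0.0022 in set 1 and 0.90 in set 2. The labels do not give these sets, and how many of all probe sets separate the groups as far within a set was not counted. Low scores go with low Drd1.

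After TTX, the Drd1 difference was about the size of its error. Its intensity was 733, 1169 and 1562 at the lowest, median and highest TTX array, against 490, 941 and 1416 in sham arrays. The groups overlap over most of their range, and the lowest sham array stands alone. The difference was 0.18 ± 0.17 (interval -0.17 to 0.53, limma adjusted p = 0.999), and 0.058 without that sham array. With the run of sample numbers cut at its middle, it was 0.18 in set 1 and 0.14 in set 2. The lesion effect minus the TTX effect was 0.27 ± 0.27 for Drd1 (interval -0.27 to 0.81, limma adjusted p = 0.904), so the effects were not shown to differ.

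Under chronic antipsychotics Drd1 showed no called difference from vehicle. Vehicle arrays ran from 968 through a median of 1212 to 1503. The lowest, median and highest clozapine arrays were at 903, 1138 and 2598 at low, 994, 1336 and 2021 at medium and 917, 1362 and 1560 at high dose. Those of haloperidol were at 1108, 1251 and 1819 at low, 1084, 1397 and 1860 at medium and 1019, 1231 and 1858 at high dose. Every drug group overlaps vehicle, and each has an array above the highest vehicle array. Mean log2 levels from lowest to highest were 10.25 for vehicle, 10.28 for high haloperidol, 10.31 for low clozapine, 10.32 for high clozapine, 10.39 for medium clozapine, 10.41 for low haloperidol and 10.46 for medium haloperidol. Neighbours in this order differ by less than the SD within any of these groups, which was 0.21 to 0.44. Against vehicle the clozapine mean differed by 0.095 ± 0.11 (interval -0.13 to 0.32) and the haloperidol mean by 0.14 ± 0.11 (interval -0.084 to 0.36). High against low dose differed by 0.0053 ± 0.14 for clozapine and by -0.13 ± 0.14 for haloperidol. The limma adjusted p-values of these 4 differences lay between 0.889 and 1. The order differed on probe set 1368479_at, where vehicle averaged 9.51. High clozapine (9.36), high haloperidol (9.36) and medium clozapine (9.45) lay below vehicle there. Low clozapine (9.68), low haloperidol (9.60) and medium haloperidol (9.63) lay above it.

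Drd2, the D2 receptor that antipsychotics bind, showed no called difference from vehicle in any antipsychotic group. Vehicle arrays ran from 437 through a median of 522 to 705. The lowest, median and highest clozapine arrays were at 464, 579 and 1196 at low, 387, 613 and 988 at medium and 460, 525 and 650 at high dose. Those of haloperidol were at 404, 507 and 850 at low, 416, 642 and 728 at medium and 414, 569 and 852 at high dose. Each of these groups overlaps vehicle, and high clozapine lies within it. Ordered by mean log2, vehicle (9.05) and high clozapine (9.05) were followed by low haloperidol (9.07), medium haloperidol (9.20), medium clozapine (9.21), high haloperidol (9.25) and low clozapine (9.29), with neighbours closer than the SD within groups of 0.15 to 0.40. The haloperidol mean differed from vehicle by 0.12 ± 0.12 (interval -0.12 to 0.36, limma adjusted p = 0.953). The clozapine mean differed from it by 0.13 ± 0.12 (interval -0.11 to 0.37, limma adjusted p = 0.977). Both comparisons share the vehicle arrays. The clozapine mean against the haloperidol mean was 0.011 ± 0.086 for Drd2 (interval -0.16 to 0.18, limma adjusted p = 0.963).

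Drd2 also showed no called difference after either disruption of the hippocampus. After TTX it was at 397, 590 and 800 (lowest, median, highest), against 232, 542 and 738 in sham arrays. The difference was 0.18 ± 0.18 (interval -0.19 to 0.55, limma adjusted p = 0.999), and 0.041 without sham array 2, the one that also stood alone for Drd1. After the lesion it was at 270, 478 and 737, against 155, 442 and 625 in sham arrays. In that experiment Drd2 fell outside the filter, with a geometric mean intensity of 442 where the filter began at 471, and the fit over all probe sets gave 0.12 ± 0.19 (limma adjusted p = 0.935). Without the sham array at 155, that difference was -0.038.

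**Figure D3:**
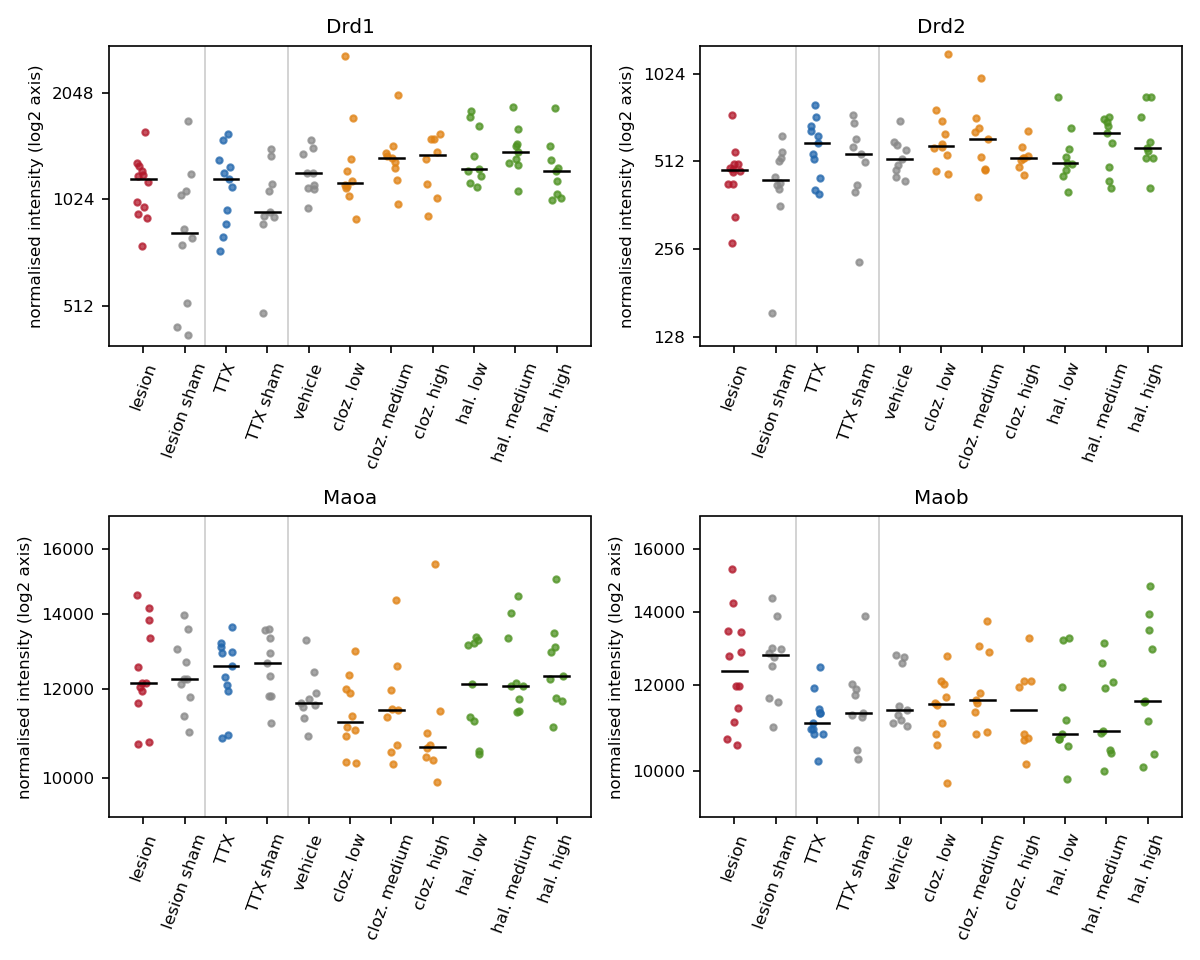
Normalised intensity on every array (points, log2-spaced axis) for Drd1 (1368478_at), Drd2, Maoa and Maob by group, with the group median as a bar and vertical lines between experiments. Each group overlaps its control for all 4 genes; single arrays stand apart, among them the lowest Drd2 array of the lesion shams at 155 and the highest Maoa array of high clozapine at 15515.

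Drd1 and Drd2 varied together from array to array, and with striatal markers in the neuroleptic arrays. With group means removed, Drd1 and Drd2 had r = 0.56 over the 105 arrays and the 2 Drd1 probe sets r = 0.68, given as descriptions. A striatal score over the 11 of 15 measured striatal markers that passed the filter averaged 0.0014 in lesion and -0.0017 in sham arrays. It averaged 0.038 in TTX and -0.046 in sham arrays, with ranges of -0.071 to 0.18 and -0.12 to 0.066. In the neuroleptic groups its means lay between -0.026 and 0.036. The defining striatal markers Gpr6, Isl1 and Six3 were near background in each experiment. In the neuroleptic experiment the score followed Drd1 at r = 0.65 and rho = 0.54, and Drd2 at r = 0.58 and rho = 0.46 (n = 63). The permutation p-values adjusted over 9 relations were 4.5e-05 for either r, from the smallest p that 100000 permutations can give, and 0.00027 and 0.00063 for rho. Here too differences between the number sets were left in, so these p-values can be too small. Without the 2 arrays farthest from the median score, r was 0.53 for Drd1 and 0.43 for Drd2. The array with the highest score, 0.44, was a low-clozapine array and carried the highest Drd1 value (2598) and the highest Drd2 value (1196) of the experiment. In the lesion experiment r was 0.45 for Drd1 and -0.016 for Drd2, with adjusted permutation p of 0.057 and 0.944 (n = 22). In the TTX experiment r was 0.43 and 0.11, with adjusted permutation p of 0.0699 and 0.735 (n = 20). In bulk tissue, fewer cells of a type and less RNA per cell cannot be told apart, and the part of striatal neurons in the Drd1 and Drd2 values was not tested.

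The genes whose pattern over the 105 arrays was most like Drd1, among 10133 named genes and with group means removed, were Cdhr1 (r = 0.64), Nxph3 (r = 0.57) and Glra2 (r = 0.54). For Drd2 they were Rnf130 (r = 0.42), Serinc5 (r = 0.39) and Insig1 (r = 0.38). The 95th percentile of r over those genes was 0.22 for Drd1 and 0.21 for Drd2.

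Drd3, Drd4 and Drd5 varied widely from array to array at levels near background. Drd3, the D2-class receptor known from limbic striatum, was at 33.1, 162 and 208 in TTX arrays, against 32.0, 98.3 and 316 in sham arrays. It was at 32.0, 43.2 and 179 in lesion arrays, against 32.0, 82.7 and 230 in sham arrays. The groups overlap in both experiments, and the highest Drd3 array was a sham array each time. In the fit over all probe sets Drd3 differed by 0.86 ± 0.41 after TTX (unadjusted p = 0.0479, limma adjusted p = 0.984) and by -0.48 ± 0.37 after the lesion (limma adjusted p = 0.843). The lesion effect minus the TTX effect was -1.34 ± 0.55 for Drd3 (unadjusted p = 0.0204, limma adjusted p = 0.731). Of all probe sets, 4.89% had an unadjusted p under 0.05 after TTX and 6.13% in the lesion effect minus the TTX effect.

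For Drd4, the D2-class receptor known from cortex and retina, the 3 probe sets did not move together. Their pairwise r over the 105 arrays, group means removed, was -0.021, 0.085 and 0.14. On probe set 1387520_at, high-clozapine arrays were at 63.0, 166 and 317 (lowest, median, highest) and medium-haloperidol arrays at 32.0, 212 and 408, against 32.0, 80.7 and 183 in vehicle arrays. The differences from vehicle were 1.05 ± 0.52 and 1.03 ± 0.50, with unadjusted p of 0.0472 and 0.0448 and limma adjusted p of 0.994 and 1. Of all probe sets, 4.41% and 4.69% had an unadjusted p under 0.05 in these comparisons. The brighter Drd4 probe set, 1394385_s_at, gave 0.0085 ± 0.22 and 0.20 ± 0.21 for the same differences. Drd5, the second D1-class receptor, had medians between 32.0 and 64.3 over the 11 groups, and its differences in the 4 main comparisons with controls ran from -0.44 ± 0.49 after TTX to 0.37 ± 0.38 after the lesion.

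**Figure D4:**
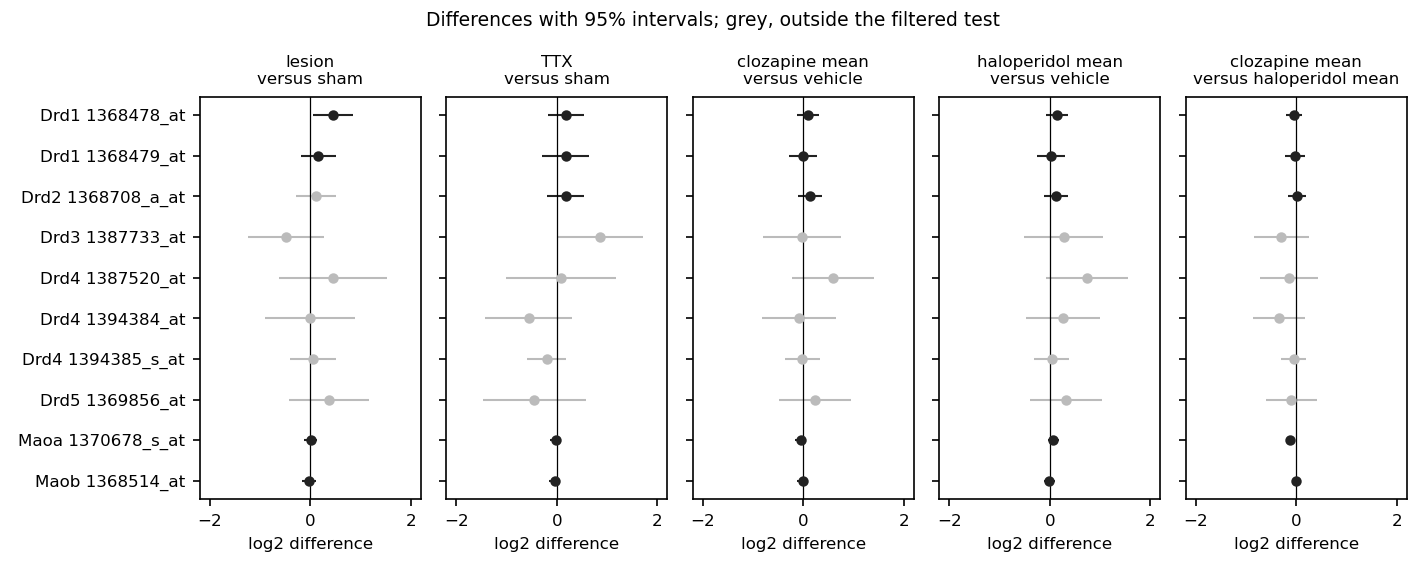
Log2 differences with 95% intervals for each of the 10 probe sets in 5 comparisons. Black points entered the filtered test and grey points come from the fit over all probe sets. Intervals of Maoa and Maob are the narrowest and those of Drd3, Drd5 and 2 of the Drd4 probe sets the widest; 0 lies outside the interval for Drd1 (1368478_at) after the lesion, Drd3 after TTX and Maoa between the drugs.

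Maoa and Maob are neighbours on the rat X chromosome, transcribed towards each other, and each varied little between arrays here. The 250 bases before each annotated start in the GRCr8 assembly, from RefSeq, are shown because the genes varied together from array to array. Capitals mark every GC box, GGGCGG on either strand (CCGCCC on the printed one), a motif that Sp-family factors are known to bind; overlapping matches were counted.
Maoa, chrX:8681373-8681622, minus strand: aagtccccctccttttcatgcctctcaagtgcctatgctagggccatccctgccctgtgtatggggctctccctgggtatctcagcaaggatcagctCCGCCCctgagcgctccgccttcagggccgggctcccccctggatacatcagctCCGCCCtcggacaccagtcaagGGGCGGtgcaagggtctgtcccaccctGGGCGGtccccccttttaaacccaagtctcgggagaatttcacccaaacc
Maob, chrX:8490155-8490404, plus strand: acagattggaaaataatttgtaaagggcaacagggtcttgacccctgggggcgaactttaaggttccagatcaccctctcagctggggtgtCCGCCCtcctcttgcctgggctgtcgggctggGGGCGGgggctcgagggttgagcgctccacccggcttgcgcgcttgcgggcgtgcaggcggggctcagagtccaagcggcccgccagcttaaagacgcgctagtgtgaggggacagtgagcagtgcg
Maoa had 4 GC boxes and a GC content of 62.4%, and Maob had 2 and 63.6%. Of 33469 rat promoter windows of the same length, 30.5% held at least 1 GC box, and the median GC content was 51.2%. Neither window held the TATA box TATAAA on either strand, which 12.9% of the windows held. Among the receptors, the windows of Drd2 and Drd5 held 2 GC boxes each and those of Drd3 and Drd4 held 0; the Drd1 window was not used, because its start in the table lies inside the annotated gene. These matches describe the letters only.

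Neither enzyme passed the test after the lesion or TTX, and the intervals were narrow. Maoa ran from 10715 through a median of 12162 to 14567 in lesion arrays, against 10998, 12259 and 13981 in sham arrays. Maob ran from 10572 through 12362 to 15334 in lesion arrays, against 10973, 12780 and 14413 in sham arrays. For each gene the group ranges nearly coincide. The lesion difference was 0.0076 ± 0.059 for Maoa (interval -0.11 to 0.13) and -0.023 ± 0.065 for Maob (interval -0.16 to 0.11), with limma adjusted p of 0.989 and 0.96. After TTX, Maoa was at 10855, 12580 and 13647, against 11203, 12668 and 13585 in sham arrays. Maob was at 10220, 11074 and 12460 in TTX arrays, against 10263, 11303 and 13861 in sham arrays. Again the ranges overlap nearly whole. The TTX difference was -0.020 ± 0.052 for Maoa (interval -0.13 to 0.087) and -0.042 ± 0.051 for Maob (interval -0.15 to 0.064), with a limma adjusted p of 0.999 each.

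Among the antipsychotic groups Maoa averaged lower under clozapine than under haloperidol, with vehicle between them, and the difference did not pass the test. Vehicle arrays ran from 10899 through a median of 11658 to 13274. The lowest, median and highest clozapine arrays were at 10318, 11226 and 12992 at low, 10283, 11501 and 14411 at medium and 9919, 10658 and 15515 at high dose. Those of haloperidol were at 10501, 12124 and 13361 at low, 11449, 12084 and 14552 at medium and 11097, 12336 and 15040 at high dose. The ranges overlap throughout, and the highest array of the experiment was a high-clozapine one. On the log2 scale the 27 clozapine arrays averaged 13.48 ± 0.15 and the 27 haloperidol arrays 13.59 ± 0.13 (SD). The clozapine mean minus the haloperidol mean was -0.12 ± 0.039 (interval -0.20 to -0.044), with 23 of 27 clozapine arrays below the haloperidol mean. The unadjusted p was 0.00269 and the limma adjusted p 0.0943, in a comparison where 15.2% of all probe sets had an unadjusted p under 0.05 and 163 of the 225 called probe sets were lower under clozapine. With array weights in the fit the difference was -0.13 and passed the test (limma adjusted p = 0.0304). With the number sets as a term it was -0.081 (limma adjusted p = 0.606), and 0 probe sets were called in the whole comparison. With the sample number as a linear covariate it was -0.12 (limma adjusted p = 0.102). Over the other alternatives the adjusted p for Maoa lay between 0.0821 and 0.150.

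Markers of interneurons and of endothelial and mural cells were mostly higher under clozapine than under haloperidol. The pyramidal neuron and microglia scores averaged lower. Of 11 interneuron markers 9 were higher under clozapine, and 1 was called, the neuropeptide Npy, with a difference of 0.15 ± 0.035 (limma adjusted p = 0.0241). With the number sets as a term 0 probe sets were called between the drugs, so Npy was not called there. Of 11 endothelial and mural markers 8 were higher, with a median of 0.11 and 0 called. Over all probe sets tested the median difference was 0.012. The blood markers Alas2 and Hbb differed by 0.44 ± 0.17 and 0.21 ± 0.14, with limma adjusted p of 0.176 and 0.466. A blood score over these 2 genes averaged -0.093 in vehicle arrays, -0.42, 0.25 and 0.78 at low, medium and high clozapine, and -0.22, -0.12 and -0.041 at low, medium and high haloperidol. It ran from -2.56 to 1.44 over clozapine arrays and from -0.89 to 0.56 over haloperidol arrays. The endothelial and mural score ran from -0.28 to 0.37 and from -0.64 to 0.21 over the same arrays, and the interneuron score from -0.11 to 0.12 and from -0.42 to 0.10. The interneuron score averaged 0.047, 0.022 and 0.0026 at low, medium and high clozapine, against 0.020, -0.0096 and -0.090 at the same haloperidol doses. Its lowest value, -0.42, was on a high-haloperidol array. The pyramidal neuron score averaged 0.018, -0.032 and -0.016 at low, medium and high clozapine, against 0.033, 0.058 and 0.020 at the same haloperidol doses. The microglia score averaged -0.048, -0.012 and 0.0035, against -0.018, -0.0069 and 0.029. The part of these markers in the Maoa difference was not tested.

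The Maoa difference between the drugs had the other sign among the earliest sample numbers. That run was cut for this comparison into 4 nearly equal sets, which the labels do not give. In set 1 the 6 clozapine arrays averaged 13.62 and the 8 haloperidol arrays 13.48, a difference of 0.14. In sets 2, 3 and 4 the differences were -0.23, -0.12 and -0.17. The drugs were spread unevenly over the sets: set 3 held 12 clozapine and 2 haloperidol arrays, and set 4 held 3 clozapine and 9 haloperidol arrays. Doses were uneven as well, with both haloperidol arrays of set 3 at medium dose, and the set averages pool the doses. Whether the drug difference changes along the run of numbers was not tested. With groups taken out, the sets held 15.4% of the variance of Maoa and 27.2% of that of Maob, against a median of 21.3% over the probe sets tested. Against vehicle neither drug mean passed: the clozapine mean differed by -0.054 ± 0.054 (interval -0.16 to 0.055, limma adjusted p = 0.977) and the haloperidol mean by 0.067 ± 0.054 (interval -0.042 to 0.18, limma adjusted p = 0.921). By dose, mean log2 Maoa was 13.53 for vehicle, 13.48, 13.50 and 13.44 for low, medium and high clozapine, and 13.55, 13.61 and 13.62 for low, medium and high haloperidol. Neighbouring levels in this range differ by less than the SD within groups of 0.082 to 0.20. High against low dose differed by -0.032 ± 0.067 under clozapine and 0.066 ± 0.067 under haloperidol, with limma adjusted p of 1 and 0.888.

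**Figure D5:**
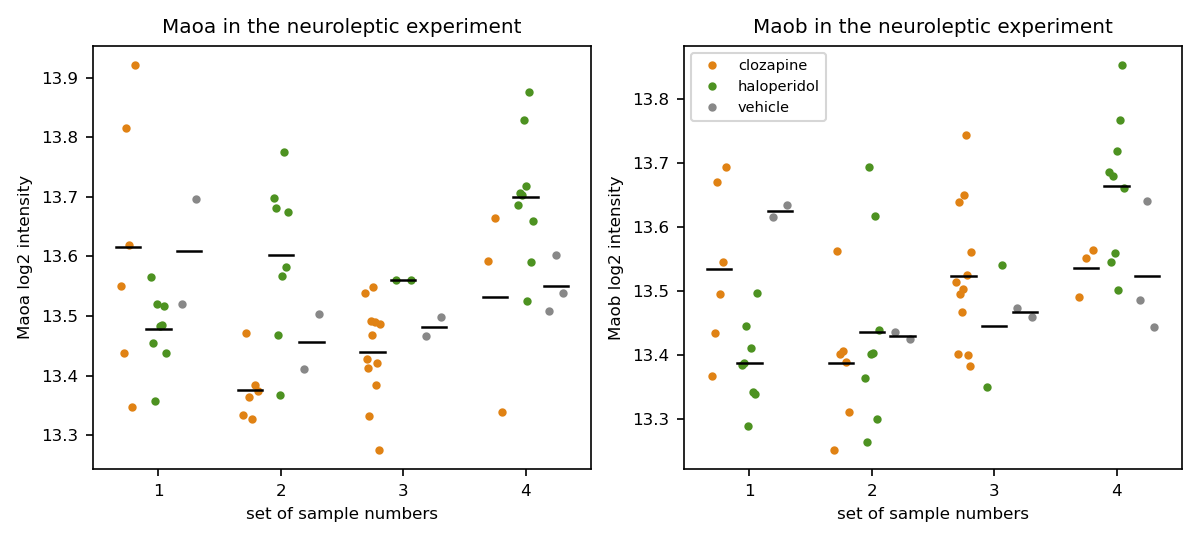
Log2 intensity of Maoa (left) and Maob (right) on each array of the neuroleptic experiment by set (the run of sample numbers cut into 4), with clozapine, haloperidol and vehicle side by side and their means as bars. For Maoa the clozapine mean lies above the haloperidol mean in set 1, by 0.14, and below it in sets 2 to 4, by 0.23, 0.12 and 0.17.

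Maob averaged nearly the same under both drugs. Vehicle arrays ran from 10989 through a median of 11373 to 12768. The lowest, median and highest clozapine arrays were at 9750, 11524 and 12757 at low, 10820, 11608 and 13717 at medium and 10156, 11374 and 13251 at high dose. Those of haloperidol were at 9831, 10816 and 13251 at low, 10006, 10887 and 13111 at medium and 10085, 11599 and 14794 at high dose. Every drug group overlaps vehicle. In order of mean log2 the groups were low haloperidol at 13.46, medium haloperidol at 13.47, low clozapine at 13.47, high clozapine at 13.48, vehicle at 13.51, medium clozapine at 13.54 and high haloperidol at 13.56, with neighbours closer than the SD within groups of 0.091 to 0.19. The clozapine mean minus the haloperidol mean was -0.00046 ± 0.038 for Maob (interval -0.077 to 0.076, limma adjusted p = 0.997). Against vehicle the clozapine mean differed by -0.015 ± 0.054 and the haloperidol mean by -0.015 ± 0.054, with limma adjusted p of 0.985 and 0.995. Over sets 1 to 4 the difference between the drugs was 0.15, -0.048, 0.078 and -0.13.

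Maob followed astrocyte markers, and each enzyme had its own closest genes. An astrocyte score over the 11 measured of 12 listed markers followed Maob at r = 0.54 and rho = 0.54 in the lesion experiment (n = 22), r = 0.63 and rho = 0.63 in the TTX experiment (n = 20) and r = 0.31 and rho = 0.33 in the neuroleptic experiment (n = 63). The permutation p-values for r, adjusted over 9 relations, were 0.0216, 0.00771 and 0.0243, and those for rho were 0.0196, 0.00996 and 0.0196. They too can be too small, because differences between the number sets were left in. Without the 2 arrays farthest from the median score, r was 0.43, 0.58 and 0.33. The score itself averaged -0.0059 in lesion and 0.0071 in sham arrays, and -0.013 in TTX and 0.016 in sham arrays. Over the neuroleptic groups its means ran from -0.027 to 0.027. Maoa and Maob had r = 0.48 over the 105 arrays with group means removed. The genes most like Maob were Psat1 (r = 0.66), an enzyme of serine synthesis, Ndp (r = 0.62), which encodes the secreted protein norrin and is the next protein-coding gene beside Maob on the X chromosome in GRCr8, and Rbm39 (r = 0.59), an RNA-binding protein. The genes most like Maoa were Ythdf2 (r = 0.77), a reader of methylated RNA, Nsd2 (r = 0.77), a histone methyltransferase, and Zfp451 (r = 0.76). The 95th percentile of r over the 10133 genes was 0.32 for Maoa and 0.36 for Maob. These values are descriptions over arrays that share hybridisation and normalisation.

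Genes that act after the receptors showed no called change either. Of 15 measured transducers (G-protein subunits, cyclases, kinases and phosphodiesterases), 0 were called after the lesion, after TTX, under either drug mean or between the drugs. The list had a median of -0.043 after the lesion, with 4 higher and 11 lower, and of 0.033 after TTX, with 13 higher and 2 lower, where the medians over all probe sets tested were -0.0010 and -0.00057. Under the drugs it was 0.010 for the clozapine mean and -0.0018 for the haloperidol mean, where the medians over all probe sets tested were -0.00083 and -0.013. Gnal, the stimulatory G-protein subunit that couples Drd1 in striatum, averaged 11.31 ± 0.24 after TTX and 10.79 ± 0.20 after sham (SD, n = 11 and 9). Its difference was 0.52 ± 0.098, with 11 of 11 TTX arrays above the sham mean and a limma adjusted p of 0.499. Gnai2, an inhibitory subunit, differed by 0.29 ± 0.095 under haloperidol (26 of 27 arrays above the vehicle mean, limma adjusted p = 0.571) and by 0.21 ± 0.095 under clozapine (20 of 27, limma adjusted p = 0.977). Pde10a, a phosphodiesterase typical of striatal neurons and a marker in the striatal score, differed by -0.20 ± 0.093 after the lesion, 0.22 ± 0.084 under haloperidol and -0.17 ± 0.060 for clozapine against haloperidol, with limma adjusted p of 0.624, 0.651 and 0.144. Gnaq, the subunit that activates phospholipase C, was at 0.38 ± 0.11 for clozapine against haloperidol, with 21 of 27 clozapine arrays above the haloperidol mean and a limma adjusted p of 0.0735.

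Of 12 measured genes of receptor desensitisation and partners, 11 entered the test and 0 were called. This list had medians of 0.028 after the lesion and 0.026 after TTX, and of 0.064 under clozapine and 0.0098 under haloperidol. Caly, which encodes calcyon, a protein named for its interaction with the D1 receptor, differed by 0.14 ± 0.073 after the lesion and 0.11 ± 0.072 after TTX, with limma adjusted p of 0.677 and 0.999. Rgs9, a brake on D2-class signalling in striatum and also in the striatal score, differed by 0.25 ± 0.11 under haloperidol and 0.15 ± 0.11 under clozapine, with limma adjusted p of 0.668 and 0.977. Ncs1, a calcium sensor that binds Drd2, was at -0.14 ± 0.048 for clozapine against haloperidol (limma adjusted p = 0.134).

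Several genes of amine synthesis and transport were near background. This held for the transporters Slc6a3 and Slc18a2 and for Dbh in each experiment, and for Th, the rate-limiting enzyme of dopamine synthesis, in the lesion and TTX experiments. Of 12 measured genes of amine synthesis and transport, 3 entered the test and 0 were called: Ddc, the decarboxylase that makes dopamine, and Pts and Qdpr of the biopterin cofactor pathway. Ddc differed by 0.21 ± 0.11 after TTX (limma adjusted p = 0.999) and by -0.0055 ± 0.11 after the lesion (limma adjusted p = 0.995). Qdpr was at 0.13 ± 0.044 for clozapine against haloperidol, with 23 of 27 clozapine arrays above the haloperidol mean and a limma adjusted p of 0.104.

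Downstream of the oxidases, where aldehydes and peroxide are cleared, 12 of 12 measured genes entered the test and 0 were called. Its medians were -0.0095 after the lesion, -0.0014 after TTX, -0.033 under clozapine and -0.039 under haloperidol. Under haloperidol 11 of the 12 were lower, where 10592 of all 18625 probe sets were lower. Sult1a1, a sulfotransferase of phenols, differed by -0.20 ± 0.082 under haloperidol and -0.18 ± 0.082 under clozapine, with limma adjusted p of 0.651 and 0.977 and the vehicle arrays in common. Adh5, a formaldehyde-clearing dehydrogenase, differed by 0.12 ± 0.049 after the lesion (limma adjusted p = 0.607), and Aox1, an aldehyde oxidase, by -0.15 ± 0.054 after TTX (limma adjusted p = 0.999). Aldh2, the mitochondrial aldehyde dehydrogenase, was at 0.11 ± 0.051 for clozapine against haloperidol (limma adjusted p = 0.269).

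Over the whole series the deposited values had been scaled to a common trimmed mean of 2501 on every array, with medians from 775 to 962. No 2 arrays held identical values, and the highest correlation between any pair was 0.968. Precision is set by how many arrays each group holds, and the table carries no detection calls.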

How the data were processed

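Frontal cortex RNA was measured on 105 arrays. The deposited table gives 1 linear intensity per probe set and array for 31099 probe sets. As the values show, the arrays had been scaled to a common mean after 2% was trimmed at each end; the authors' software is not given in the sources used here. Arrays of an experiment were quantile-normalised together, values under 32 were set to 32, and log2 was taken. With 57 control probe sets left out, 18625 (60%, by mean level per experiment) were tested with limma 3.58.1 in R 4.3.3 (lmFit, eBayes), 1 mean per group and no covariate, with Benjamini-Hochberg adjustment. Each experiment had its own fit, and the lesion effect minus the TTX effect came from a joint one. Probe sets outside the filter were fitted over all 31042. The fit was tested on simulated data. Errors of differences are SE.

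Symbols come from the platform's annotation, where 20826 probe sets had 1 symbol, 436 several and 9780 none. A listed gene was represented by its brightest probe set, and up to 3 genes per list with the smallest p in each main comparison could be named. A marker score is the mean centred log2 value of its markers. Correlations with a score had group means removed but not differences between number sets, and all arrays of an experiment were permuted freely. The members, lists and tests were chosen with earlier results of these data known. Scripts used Python 3.11.15, scipy 1.17.1 and matplotlib 3.10.9.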

Additional observations from a re-analysis of the deposited data

Results flagged for a closer look

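In 90 groups of 8 to 10 arrays over the 10 probe sets, Dixon's 95% criterion was applied to log2 values. In 7 of them a value stood apart from the rest of its group. For normally spread values chance flags about 1 group in 20, a rate that need not hold for groups with values at the floor. The values below are given as intensities. Sham array 2 of the TTX experiment was low on both Drd1 probe sets, at 490 where the other 8 arrays ran from 875 to 1416 (1368478_at) and at 192 where they ran from 453 to 721 (1368479_at). The same array had a layer 6 and 6b score of -0.62, the lowest of its group. High-haloperidol array 7 was low on Drd1 probe set 1368479_at, at 273, with the others between 593 and 970. Sham array 9 of the lesion experiment was low for Drd2, at 155, with the others between 361 and 625; its mean correlation with the other arrays of the experiment was also low. Low-clozapine array 1 was high for Drd2, at 1196, with the others between 464 and 768, and carried the highest striatal score. High-clozapine array 2 was high for Maoa, at 15515, with the others between 9919 and 11477; without it the clozapine mean minus the haloperidol mean was -0.14. Medium-haloperidol array 9 was high for Drd5, at 287, with the others between 32.0 and 73.8, near background. The part of cell make-up or array quality in these values was not tested.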

How the results depend on the processing

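Of 580 member differences under 9 other settings, 550 kept their sign and side of the threshold, 29 had the other sign and 1 became called: Maoa between the drugs with array weights, which made 1 member called there. The cause was not tested for any of these. The 29 were at most 0.072 in size. With the number sets (each run of sample numbers cut into equal or nearly equal parts) as a term they were, for Drd1 1368479_at, 0.019 (clozapine mean), -0.022 (haloperidol mean), 0.031 (lesion minus TTX) and 0.041 (clozapine against haloperidol); for Drd1 1368478_at, -0.0042 (high against low clozapine); for Drd2, -0.0089 (high clozapine) and -0.039 (low haloperidol); for Maoa, 0.023 (medium clozapine); and for Maob, 0.010 (clozapine mean) and 0.017 (clozapine against haloperidol). With the sample number as a covariate they were 0.072 for Drd1 1368479_at and 0.0038 for Drd2 (lesion minus TTX), -0.012 for Drd1 1368478_at (high against low clozapine), -0.0081 for Drd2 (high clozapine), and -0.0057 for Drd2 and 0.010 for Maob (clozapine against haloperidol). With array weights they were 0.072 for Drd1 1368479_at (lesion minus TTX), -0.030 for Drd1 1368478_at and -0.0066 for Maob (high against low clozapine), and -0.0098 for Drd2 and 0.0080 for Maob (clozapine against haloperidol). With values as deposited they were -0.020 for Drd2 (high clozapine), and -0.040 for Drd2 and 0.0090 for Maob (clozapine against haloperidol). Without the 4 arrays of low mean correlation, a setting chosen after seeing the data, they were 0.013 for Maob (lesion), -0.023 for Drd1 1368479_at (haloperidol mean), -0.038 for Drd1 1368478_at (high haloperidol), and 0.0084 for Drd1 1368479_at and 0.020 for Maob (clozapine against haloperidol). Counts over all probe sets moved more. Clozapine against haloperidol had 225 called, against 49 with no filter, 0 with the set term, 531 with array weights and 67 without the low-correlation arrays. The lesion had 1 with no filter in place of 0. The clozapine mean had 1 with values as deposited, with the top 40% of probe sets or without the low-correlation arrays, in place of 0. Medium clozapine had 7 with the top 40%, 9 with the set term and 10 with array weights, in place of 4, and high clozapine had 2 with array weights in place of 1. High against low clozapine had 4 with the top 40% in place of 0. The haloperidol mean had 1 with no filter in place of 4. Medium haloperidol had 4 with the set term, 2 with the sample number, 3 with array weights and 3 without the low-correlation arrays, in place of 1. High haloperidol had 3 with no filter, 10 with the sample number and 8 with array weights, in place of 5. The lesion effect minus the TTX effect had 4 with the sample number in place of 0. Leaving out 1 array at a time gave 0.35 to 0.57 for Drd1 after the lesion (without sham 7 and without sham 3) and -0.14 to -0.11 for Maoa between the drugs (without high-clozapine array 2 and without high-haloperidol array 7). No paired analysis was possible because the labels number the samples without pairing them across groups. Signal near background limits Drd3, Drd4 and Drd5.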
